A study of Mus musculus with 3 samples.

Results

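The spindle assembly checkpoint and the outer kinetochore were followed through 10 genes in oocytes of mice exposed to PCB118. The genes were Bub1, Bub1b, Bub3, Ttk, Mad1l1 and Mad2l1 of the checkpoint and Ndc80, Nuf2, Spc24 and Spc25 of the Ndc80 complex. They were taken by name from the 23464 gene names listed in the tables of this series, and every row carrying a name was added up. All 10 had a row in each table, and their mean over the 3 libraries was at least 1 FPKM, as it was for 12196 gene names in all. FPKM is the number of fragments per kilobase of transcript, relative to all fragments of the library.

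RNA was sequenced from oocytes of ICR mice, an outbred strain; all were female and 8 weeks old. Of the 3 libraries 1 came from unexposed controls, 1 from the low and 1 from the high PCB118 group. PCB118 is 2,3',4,4',5-pentachlorobiphenyl, a dioxin-like chlorinated biphenyl; by the series title, dams were exposed while pregnant and maturation of their offspring's oocytes was the question. The sources used here do not give the amounts, the number of animals and oocytes behind a library or the meiotic stage of the oocytes. Since each group is 1 library, differences could not be set against a spread between replicates, no p-value is given, and each comparison is between libraries, not conditions.

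At a kinetochore that lacks microtubules, the kinase encoded by Ttk (also called Mps1) starts the checkpoint signal, Bub1 and Bub3 assemble on the kinetochore, and Mad1 bound there converts Mad2 to the form that holds Cdc20. Mad2, BubR1 (the product of Bub1b) and Bub3 together with Cdc20 form the mitotic checkpoint complex, which inhibits the anaphase-promoting complex until chromosomes are attached. The Ndc80 complex is the rod that binds the microtubule: Ndc80 and Nuf2 form its microtubule-binding end, Spc24 and Spc25 the end that docks on the inner kinetochore. In mammalian oocytes this checkpoint delays anaphase of the first meiotic division, and it is known to be less stringent there than in somatic cells.

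Depth was estimated at about 34700000 reads for control, 27900000 for the low dose and 31500000 for the high dose, by taking the commonest low value as 1 read. On that estimate a member's value stood for between about 367 reads (Mad1l1, low dose) and about 10700 reads (Mad2l1, control). Read numbers rest on the longest protein-coding transcript of each gene, 7557 bases for Mad2l1. With a shorter transcript they would be smaller. All 10 oocyte markers checked were at 1 FPKM or more in every library, with a sum of 9184 FPKM (control), 7541 (low dose) and 8643 FPKM (high dose), most of it from Dppa3 and Oosp1. Some markers differed widely between libraries: Gdf9 was at 661 (control), 38.5 (low dose) and 193 FPKM (high dose), Mos at 9.36 (control), 178 (low dose) and 8.57 FPKM (high dose), and Bmp15 at 4.27 (control), 18.7 (low dose) and 15.8 FPKM (high dose). These 3 were chosen after their values were seen, and their relation to the values of the members was not tested. Of 12 granulosa and cumulus cell markers 8 had a row, and these summed to 24.6 (control), 27.1 (low dose) and 23.2 FPKM (high dose), most of it from Nr5a2 and Fshr, while Has2 was listed at 0 in the control and low dose libraries. The 4 at 1 FPKM or more in the low dose library went in different directions. In control, low and high dose Nr5a2 was at 17.0, 13.2 and 10.6 FPKM and Fshr at 5.61, 9.95 and 9.05 FPKM. Inha was at 0.38, 2.55 and 1.03 FPKM and Cyp19a1 at 1.42, 1.32 and 2.22 FPKM, in the same order. Of 5 blood markers 1 had a row, Alas2, listed at 0 (control), 0.044 (low dose) and 0 FPKM (high dose). These marker sums were small beside those of the oocyte. Stroma and endothelium markers (4 of 5 with a row) summed to 2.71 (control), 3.96 (low dose) and 3.33 FPKM (high dose), nearly all from Pecam1. The proliferation genes Mki67 and Top2a summed to 12.2 (control), 14.4 (low dose) and 15.4 FPKM (high dose). The part of such cells in the values below was not tested.

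**Figure D1:**
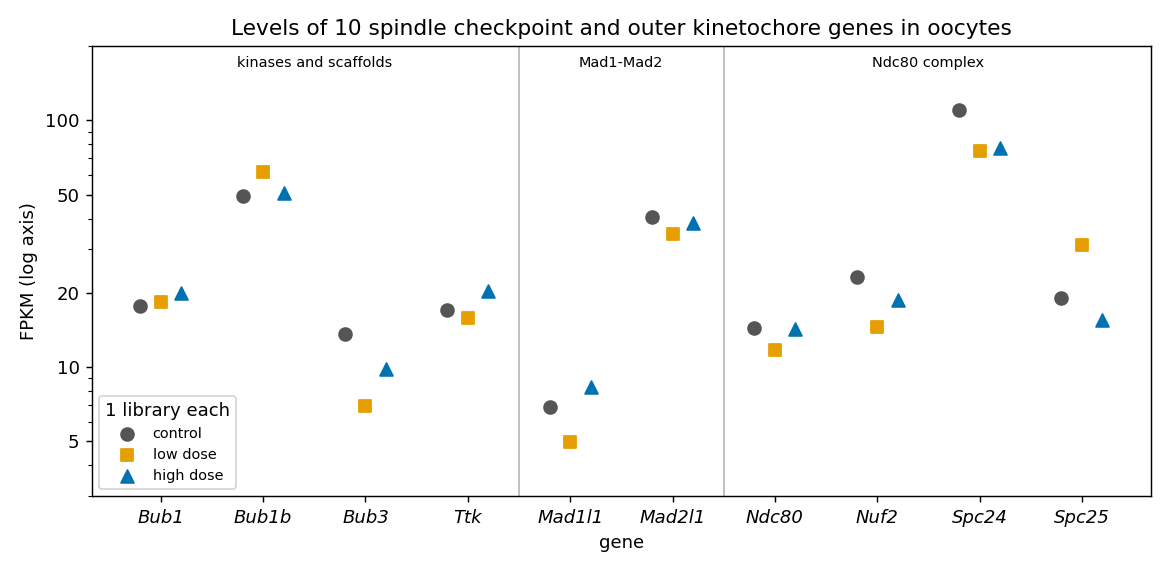
Level of each of the 10 genes in control, low dose and high dose oocytes, in FPKM on a log axis, with 1 point per library and no error bars because each group had 1 library. Spc24 is the highest gene and Mad1l1 the lowest in every library, and the largest gaps between libraries are those of Spc25 and Bub3.

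The 10 genes were expressed at levels from 4.98 FPKM (Mad1l1, low dose) to 110.0 FPKM (Spc24, control), and their order was similar in the 3 libraries. Spc24, Bub1b and Mad2l1 held the top places, in this order, in each library, and Ndc80, Bub3 and Mad1l1 the last places in each, in that order. The 4 genes between them, Bub1, Ttk, Nuf2 and Spc25, lay between 14.5 and 31.3 FPKM and changed places, which without replicates cannot be set against a spread. Of all named FPKM the 10 genes held 0.098% (control), 0.083% (low dose) and 0.086% (high dose).

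Against control no member passed the 2-fold rule at either dose, which asks for a size of 1 or more in the log2 ratio once 1 FPKM is added to both values. In the low dose library 0 of 10 were higher and 0 of 10 lower, where 14.7% of the 12196 gene names were higher and 5.98% lower (20.7% in either direction). In the high dose library the counts were again 0 and 0, where 9.69% of gene names were higher and 5.33% lower (15% in either direction). High dose against low dose, 0 members were higher and 0 lower, where 6.07% of gene names were higher and 9.7% lower (15.8% in either direction). Comparisons with control share that library, and in these bulk samples fewer cells of a type and less RNA per cell cannot be told apart.

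**Figure D2:**
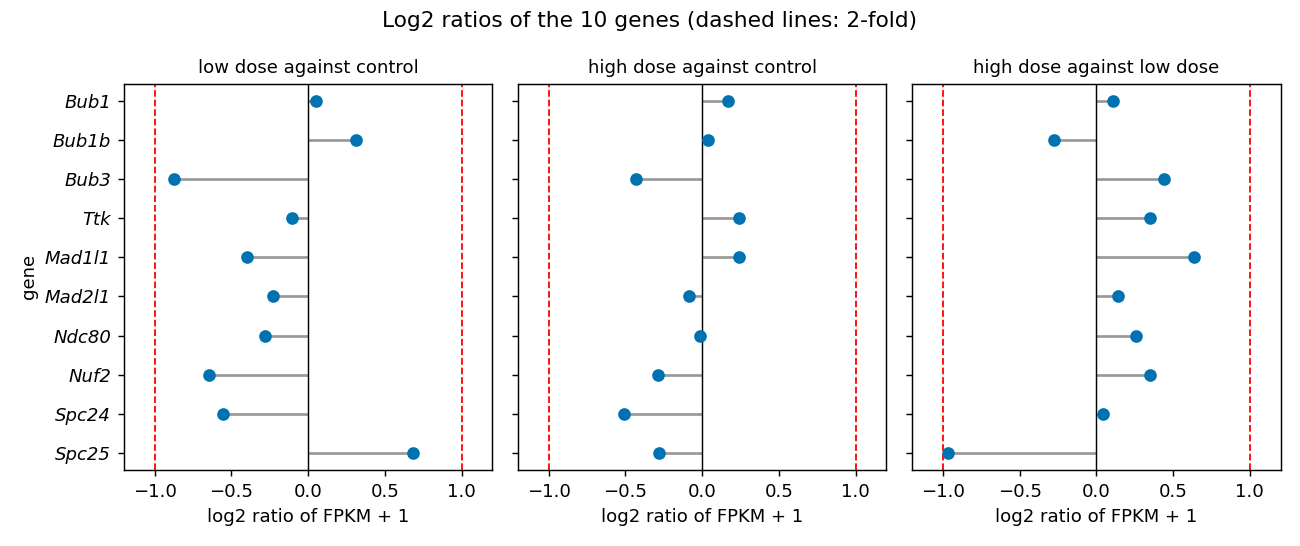
Log2 ratio of FPKM + 1 for each of the 10 genes in the low dose against the control library, the high dose against the control library and the high dose against the low dose library; dashed lines mark 2-fold. All points lie inside the lines, and the nearest to a line are Spc25 at -0.97 for high against low dose and Bub3 at -0.87 for low dose against control.

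With a 1.5-fold rule (0.585 in log2) 3 members passed at the low dose, Spc25 higher (1 of 10, where 27% of gene names were higher) and Bub3 and Nuf2 lower (2 of 10, where 12.9% were lower). In either direction that was 3 of 10, against 39.9% of gene names. At the high dose 0 of 10 passed, where 31.9% of gene names did, 19.5% higher and 12.4% lower. Between the doses Mad1l1 was higher and Spc25 lower in the high dose library, 1 of 10 each way, where 11.5% of gene names were higher, 18.3% lower and 29.8% either.

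The median size of the log2 ratio, sign left out, was 0.36 for the members and 0.46 for all gene names at the low dose, and 0.24 and 0.37 at the high dose. With its sign, the median of the members was -0.25 for the low dose and -0.05 for the high dose, and that of all gene names was 0.17 and 0.08. Among the 7771 gene names whose reference transcript is as long as those of the members (1527 to 7557 bases), the median was 0.24 for the low dose and 0.11 for the high dose. Members below the median of all gene names numbered 8 of 10 at the low dose and 7 of 10 at the high dose. A trimmed mean scaling of the libraries brought the median of all gene names at the low dose to -0.01 and that of the members to -0.46, and it moved the share of all 2-fold calls that were higher to 58.1%, against 71.1% as deposited.

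The kinases and scaffolds of the checkpoint came first in the pathway. Ttk (chromosome 9, 83834689 to 83872389, plus strand, GRCm38) was at 17.1 (control), 15.8 (low dose) and 20.4 FPKM (high dose). The log2 ratio to control was -0.10 for the low dose and 0.24 for the high dose. Ttk was listed in 2 rows, and its larger row, MSTRG.44424, held 16.7 (control), 15.8 (low dose) and 17.8 FPKM (high dose). In the smaller row, MSTRG.44417, 0.37 FPKM was listed in control, 0 at the low dose and 2.63 FPKM at the high dose, so most of the excess of the high dose library came from this row.

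Bub1, the kinase that phosphorylates histone H2A at the centromere and recruits further checkpoint proteins (chromosome 2, 127801122 to 127831865, minus strand), was at 17.7 (control), 18.4 (low dose) and 19.9 FPKM (high dose). Of all members it varied least over the 3 libraries, with log2 ratios against control of 0.05 (low dose) and 0.17 (high dose). The sign of the low dose value turned to -0.16 under trimmed mean scaling. Its paralogue Bub1b (chromosome 2, 118598211 to 118641591, plus strand) was at 49.3 (control), 61.6 (low dose) and 50.8 FPKM (high dose), with log2 ratios against control of 0.31 (low dose) and 0.04 (high dose). The low dose library was the highest of the 3, and the other two lay close together; the high dose value turned to -0.06 under trimmed mean scaling. Bub1b stood above Bub1 in each library, by a ratio of FPKM of 2.79 in control, 3.35 for the low dose and 2.55 for the high dose.

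Bub3, the WD40 protein that carries Bub1 and BubR1 to the kinetochore (chromosome 7, 131560222 to 131571895, plus strand), was at 13.6 (control), 6.99 (low dose) and 9.85 FPKM (high dose). Both exposed libraries were below control, and the low dose library was the lowest. The log2 ratio was -0.87 for the low dose and -0.43 for the high dose, and 0.44 for high against low dose. Under trimmed mean scaling the low dose ratio was -1.07 and passed the 2-fold rule. At the low dose Bub1b held 8.81 times the FPKM of Bub3, against 3.63 times in control, and at the high dose it held 5.15 times. In the annotation the gene body of Bub3 overlaps that of Fgfr2 on the other strand, with no shared exon, and the strand setting of the counting is not stated in the sources.

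Mad2l1, the Mad2 protein that binds Cdc20 (chromosome 6, 66535390 to 66547220, plus strand), was at 40.7 (control), 34.7 (low dose) and 38.4 FPKM (high dose). The log2 ratio to control was -0.23 for the low dose and -0.08 for the high dose. Mad1l1, the Mad1 protein that holds Mad2 at the kinetochore (chromosome 5, 140008689 to 140321552, minus strand), was the lowest member, at 6.89 (control), 4.98 (low dose) and 8.31 FPKM (high dose). Log2 ratios were -0.40 for low dose and 0.24 for high dose against control, and 0.64 for high against low dose. Mad2l1 exceeded Mad1l1 by 5.91 times in control, 6.95 times for the low dose and 4.61 times for the high dose.

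The 2 rows of Mad1l1 went in different directions at the low dose. Row MSTRG.34038 was at 1.93 (control), 2.82 (low dose) and 3.09 FPKM (high dose), highest in the exposed libraries, with log2 ratios against control of 0.38 (low dose) and 0.48 (high dose). Row MSTRG.34043 was at 4.96 (control), 2.16 (low dose) and 5.22 FPKM (high dose), with log2 ratios against control of -0.91 (low dose) and 0.06 (high dose), so that the low value of the summed gene in the low dose library lay in this row alone. The tables give no coordinates for rows, so which exons each row covers was not tested. Nudt1, the gene for an enzyme that clears oxidised nucleotides, begins 104 bases from the start of Mad1l1 on the other strand. It was at 20.3 (control), 7.67 (low dose) and 23.5 FPKM (high dose), with log2 ratios against control of -1.30 (low dose) and 0.20 (high dose); it was chosen after its values were seen. The annotated bodies of Nudt1 and Mad1l1 do not overlap. An antisense gene, Gm16121, shares exon sequence with Mad1l1 in the annotation, and without a known strand setting reads of Gm16121 and Mad1l1 cannot be told apart there.

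**Figure D3:**
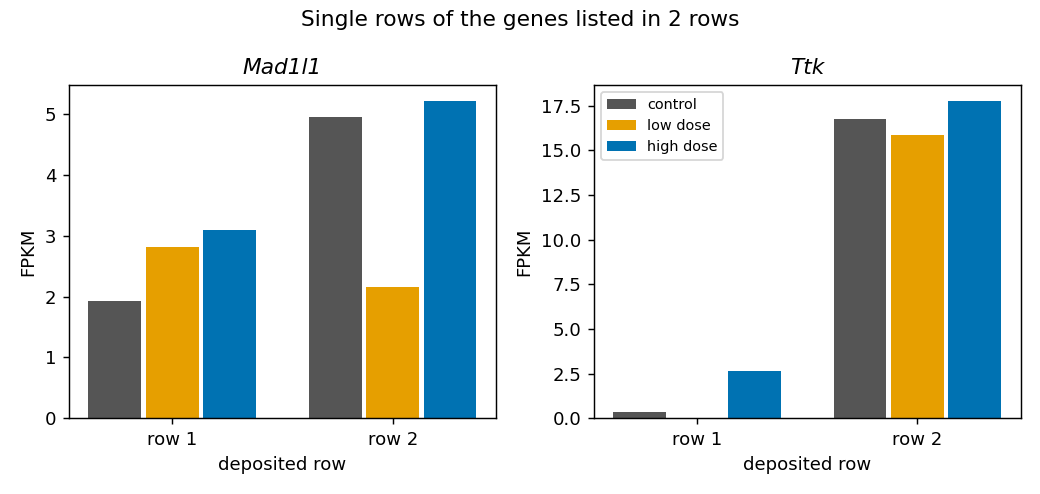
FPKM of the deposited rows of Mad1l1 and Ttk in control, low dose and high dose oocytes; row 1 is MSTRG.34038 for Mad1l1 and MSTRG.44417 for Ttk, row 2 is MSTRG.34043 and MSTRG.44424. Row 2 of Mad1l1 is low in the low dose library only, and row 1 of Ttk has no bar at the low dose because it is listed at 0.

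The Ndc80 complex holds its 4 subunits in equal number as a protein, but their transcripts were unequal in every library. Spc24 (chromosome 9, 21755442 to 21760303, minus strand) was at 110.0 (control), 74.7 (low dose) and 77.1 FPKM (high dose), and both exposed libraries were below control, with log2 ratios against control of -0.55 (low dose) and -0.51 (high dose). Spc24 alone made up 66.0% of the summed FPKM of the 4 subunits in control, 56.5% for the low dose and 61.3% for the high dose. Relative to Ndc80 its FPKM was 7.61 times as high in control, 6.36 times for the low dose and 5.40 times for the high dose.

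Spc25, the partner of Spc24 in the docking end (chromosome 2, 69193895 to 69206194, minus strand), was at 19.1 (control), 31.3 (low dose) and 15.5 FPKM (high dose). The low dose library was the highest and the high dose library the lowest, with log2 ratios against control of 0.68 (low dose) and -0.28 (high dose). High dose against low dose gave -0.97, the widest difference of any member, and it passed the 2-fold rule with a pseudocount of 0.1 FPKM (-1.01). Spc24 and Spc25 thus differed from control in opposite directions at the low dose, and the ratio of Spc24 to Spc25 was 2.39 there, against 5.76 in control; it was 4.96 at the high dose. Both genes were listed in a single row.

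Nuf2 (chromosome 1, 169497934 to 169531464, minus strand), which pairs with Ndc80, was at 23.2 (control), 14.5 (low dose) and 18.8 FPKM (high dose). Exposed libraries were below control, with log2 ratios of -0.64 for the low dose and -0.29 for the high dose. Ndc80, also called Hec1, whose tail contacts the microtubule (chromosome 17, 71496100 to 71526857, minus strand), was at 14.5 (control), 11.7 (low dose) and 14.3 FPKM (high dose), with log2 ratios against control of -0.28 (low dose) and -0.02 (high dose). Nuf2 exceeded Ndc80 by 1.61 times in control, 1.24 times for the low dose and 1.32 times for the high dose. Spc25 stood below Nuf2 in control and at the high dose (0.82 and 0.83 times its FPKM) and above it at the low dose (2.16 times). Summed over the 4 subunits the level was 166.8 FPKM in control, 132.3 for the low dose and 125.7 for the high dose, and both exposed libraries were below control. The 6 checkpoint genes summed to 145.3 (control), 142.4 (low dose) and 147.6 FPKM (high dose). Both sums joined genes of opposite direction at the low dose, and Spc24 held most of the first. Spc24, Nuf2 and Ndc80 were below control there and Spc25 above it. Bub3, Ttk, Mad1l1 and Mad2l1 were below control and Bub1 and Bub1b above it.

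**Figure D4:**
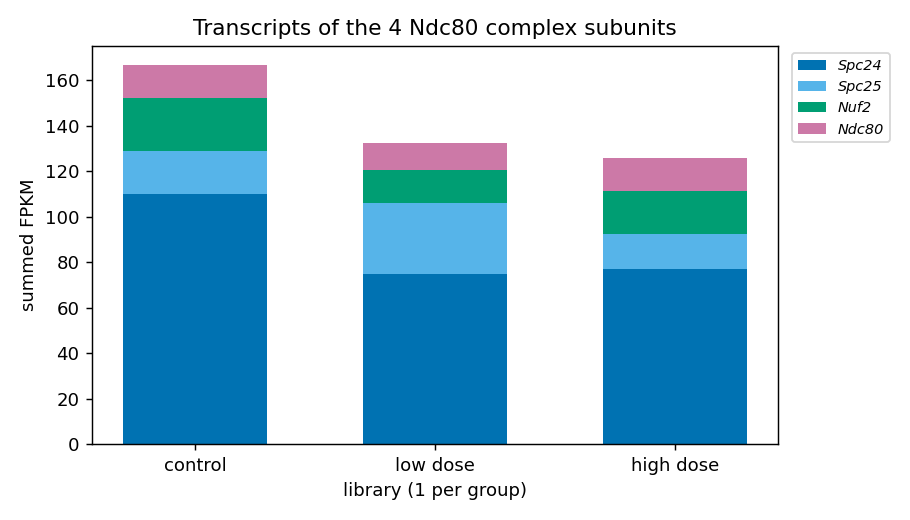
Summed FPKM of Spc24, Spc25, Nuf2 and Ndc80 in control, low dose and high dose oocytes, as stacked bars with 1 library each and no error. Spc24 fills more than any other subunit in each bar, and the Spc25 segment is widest at the low dose (31.3 FPKM).

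Promoters of the members were read for the CHR, the cell cycle genes homology region, a short element that MuvB complexes bind in genes of late cell cycle. RefSeq promoters (GRCm38.p6, 250 bases before to 50 bases after a start) were found for 9 of the 10 members, all but Spc24. The canonical letters TTTGAA, on either strand, were present in 5 of these 9, namely Bub1b, Bub3, Ttk, Ndc80 and Spc25, and in 15.6% of 8133 expressed gene names with a promoter (17.9% of all 32851 promoters). In all 5 the element lay within 50 bases of the RefSeq start, a window chosen after these promoters were read, where 4.48% of expressed gene names had it. The stretches are shown because the element recurs near a RefSeq start of these 5 genes. The choice of the members did not use this feature. Each stretch is written 5′ to 3′ on the strand of the gene, with the element in capitals. The capitals read TTCAAA where the element lies on the opposite strand.
Spc25 (chr2:69206172-69206201, minus strand): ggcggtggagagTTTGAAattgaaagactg
Bub1b (chr2:118598239-118598260, plus strand): agagacgttaaaTTTGAAactt
Bub3 (chr7:131560315-131560344, plus strand): gagccgttggcgTTCAAAatcagccaatga
Ttk (chr9:83834684-83834713, plus strand): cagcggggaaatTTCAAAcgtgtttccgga
Ndc80 (chr17:71526811-71526840, minus strand): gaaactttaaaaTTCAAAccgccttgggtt

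The element began at base 25, 41, 8 and 30 of the transcribed side in Spc25, Bub1b, Ttk and Ndc80. In Bub3 it began 43 bases before the first of 2 RefSeq starts (position -43). That Bub3 stretch lies inside the gene as annotated by GENCODE, which begins at 131560222. Variant letters TTTAAA were present in 1 of 9 members, Ndc80 (11.9% of expressed gene names), and TTCGAA in 2 of 9, Bub1 and Bub1b (2.47%). CCAAT or its reverse ATTGG, the letters bound by NF-Y, was present in 5 of 9 members (55.6%) and in 43.3% of expressed gene names. No base of a match was shared between different motifs (0 overlaps). At the low dose the 5 genes with TTTGAA ran in log2 ratio from -0.87 (Bub3) to 0.68 (Spc25), and the other 4 from -0.64 (Nuf2) to 0.05 (Bub1), so the ranges overlapped. A match describes the letters of this window and is not a measured binding site.

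Ends of the reference transcripts were read for the cytoplasmic polyadenylation element, through which stored messages of oocytes are given a longer tail during maturation. TTTTAT or TTTTAAT was present in the last 100 bases of the longest protein-coding transcript (GENCODE M21) in 3 of 10 members, Bub1b, Ndc80 and Spc24, and in 19.2% of 9668 expressed gene names with such a transcript. A polyadenylation signal (AATAAA or ATTAAA) lay in the last 40 bases of the Bub1b and Ndc80 transcripts but not of the Spc24 transcript. Element and signal were both present in 15.7% of the expressed gene names. The Spc24 transcript ended inside the annotated gene, and whether its site lies near an end of the message was not tested. Sites are shown 5′ to 3′ on the transcript with the element in capitals, since Bub1b carries it beside the letters aataaa of the polyadenylation signal.
Bub1b, nearer the end (chr2:118641557-118641578, plus strand): actgtgtaTTTTATaataaaat
Bub1b, farther from the end (chr2:118641525-118641546, plus strand): ttttgtaaTTTTATaacatgta
Ndc80 (chr17:71496168-71496189, minus strand): acatagtaTTTTATccccaaat
Spc24 (chr9:21756022-21756043, minus strand): agcttcttTTTTATttgtaatt
Against control these 3 genes had log2 ratios of 0.31, -0.28 and -0.55 at the low dose and 0.04, -0.02 and -0.51 at the high dose. Whether the libraries were selected for poly(A) tails is not stated in the sources, and the part of tail length in these values was not tested.

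The rest of the kinetochore was read from 4 lists with 50 genes, of which 47 had a mean of at least 1 FPKM. At the low dose 1 of the 47 was higher and 3 were lower by the 2-fold rule, where 14.7% of gene names were higher and 5.98% lower. At the high dose 1 was higher and 1 lower, where 9.69% of gene names were higher and 5.33% lower. For high against low dose 0 were higher and 1 was lower, where 6.07% of gene names were higher and 9.7% lower. The median log2 ratio of the 47 was -0.09 for the low dose and -0.10 for the high dose, beside 0.17 and 0.08 for all gene names.

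In the list of inner kinetochore and CENP proteins (20 expressed), 1 gene was higher and 1 lower at the low dose and 0 each way at the high dose. Itgb3bp, also called CENP-R, was at 6.28 (control), 63.2 (low dose) and 6.91 FPKM (high dose), with log2 ratios against control of 3.14 (low dose) and 0.12 (high dose). Its difference lay in row MSTRG.29526, at 1.21 (control), 60.2 (low dose) and 3.25 FPKM (high dose), while row MSTRG.29525 was at 5.07 (control), 2.93 (low dose) and 3.65 FPKM (high dose). Cenpo, a subunit of the constitutive centromere network, was at 6.05 (control), 1.58 (low dose) and 3.42 FPKM (high dose), with log2 ratios against control of -1.45 (low dose) and -0.67 (high dose); with a pseudocount of 5 FPKM the low dose ratio was -0.75 and did not pass. The gene bodies of Itgb3bp and Cenpo overlap others on the other strand in the annotation, Pgm1 and Efcab7 for the first and Adcy3 and Ptrhd1 for the second.

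Among Knl1, Mis12 complex and Ska genes (9 expressed), 2 were lower and 0 higher for the low dose, and 1 lower and 0 higher for the high dose. Dsn1, a Mis12 complex subunit that links the centromere to the Ndc80 complex, was at 53.7 (control), 20.9 (low dose) and 19.3 FPKM (high dose), and both exposed libraries were below control (log2 ratios -1.32 and -1.43). Pmf1, also a Mis12 complex subunit, was at 13.1 (control), 6.03 (low dose) and 7.34 FPKM (high dose), with log2 ratios against control of -1.01 (low dose) and -0.76 (high dose); it did not pass at the low dose with a pseudocount of 5 FPKM (-0.72). The list median was -0.09 for the low dose and -0.12 for the high dose.

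Checkpoint regulators and the RZZ and corona genes (13 expressed) had 0 genes past the rule for the low dose and 1 for the high dose. That gene was Gsg2, the haspin kinase that marks histone H3 at centromeres, at 1.19 (control), 1.97 (low dose) and 4.68 FPKM (high dose) (log2 ratio 1.38 at the high dose), and it did not pass with a pseudocount of 5 FPKM (0.65). The annotation held no gene under the name Gsg2, so genes that overlap it were not looked up. Chromosomal passenger complex genes, which correct wrong attachments, had 0 of 5 past the rule at either dose. Their median was -0.60 for the low dose and -0.36 for the high dose, below that of the members in both, a difference with no test. At the low dose Aurkc (-0.97, close to the rule), Birc5 (-0.71) and Cdca8 (-0.60) were below control. Incenp (0.39) and Aurkb (0.18) were above it.

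**Figure D5:**
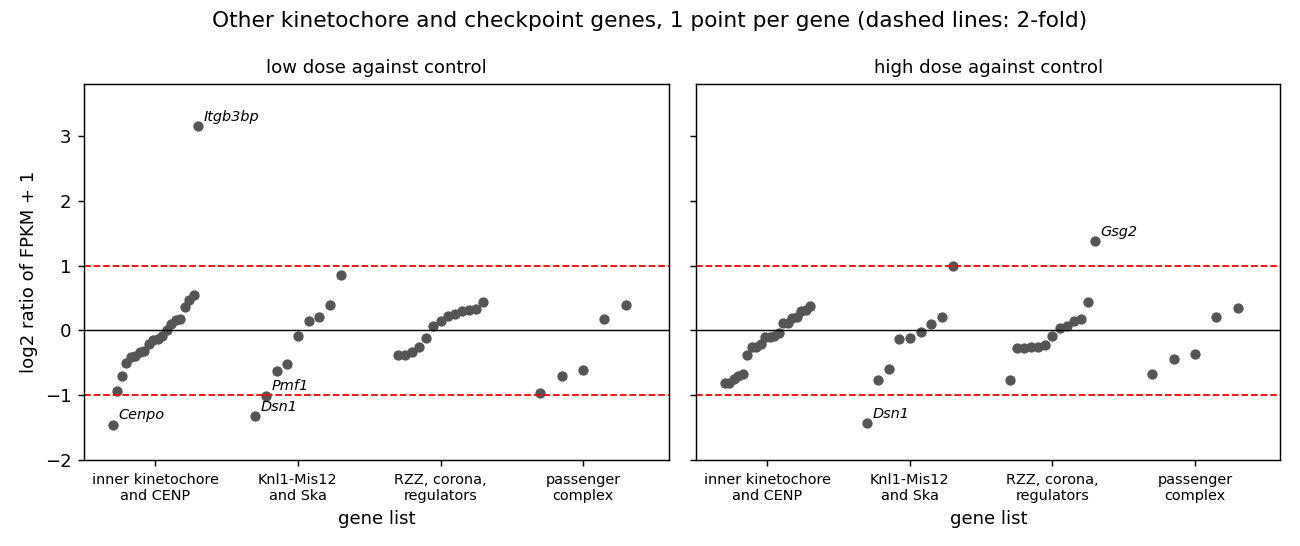
Log2 ratio of FPKM + 1 for the 47 expressed genes of 4 kinetochore and checkpoint lists, with 1 point per gene, in the low dose and the high dose library against control; dashed lines mark 2-fold. Genes past a line are named: Itgb3bp, Cenpo, Dsn1 and Pmf1 at the low dose and Gsg2 and Dsn1 at the high dose.

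Spc25, the member with the widest range over the libraries (0.97 on the log2 scale), was set beside the 56 other expressed genes of these lists and members. Cenpl, Mis12 and Plk1 had the nearest profiles, with Euclidean distances of 0.19, 0.32 and 0.33 between centred log2(FPKM + 1) values over 3 libraries. Cenpl was at 1.85 (control), 2.94 (low dose) and 1.39 FPKM (high dose), Mis12 at 2.99 (control), 4.26 (low dose) and 2.66 FPKM (high dose) and Plk1 at 12.4 (control), 15.7 (low dose) and 10.6 FPKM (high dose). That each was highest at the low dose and lowest at the high dose, as Spc25 was, follows from choosing the nearest profiles and is a description only.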

How the data were processed

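Total RNA of oocytes was sequenced in 3 libraries, grouped by the exposure label (none, low or high), 1 library per group. HISAT2, StringTie and the build mm10 are named in the submitters' processing notes; no version, annotation, filter or strand setting is stated there. Each library has a table of FPKM computed by the authors, per the file headers.

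From the deposited FPKM, rows were summed per gene name in each table, a row absent from a table counted as 0, and unnamed rows (15.4, 21.9 and 19.3% of the FPKM in control, low and high dose) were left out. Of the 61 identifiers named differently between tables, 0 rows belonged to members. Log2 ratios used a pseudocount of 1 FPKM, which understates changes of low genes, and a call was a ratio of 2-fold in either direction among gene names with a mean of at least 1 FPKM. Because FPKM is not a count, count tests were not used.

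Depth was estimated from identifiers with 1 reference transcript, taking FPKM multiplied by length as whole multiples of 1 read; the most crowded narrow window held 95 of 1406, 76 of 1030 and 74 of 1228 rows in control, low and high dose. That assumption was not tested, and the estimate covers counting error only. Positions and lengths (longest protein-coding transcript) came from GENCODE M21 (GRCm38, which is mm10). Members and gene lists were chosen with earlier results of these data known. Named genes were all members, up to 4 genes of each list past the rule, and the 3 nearest profiles. Nudt1, the 5 passenger complex genes and the oocyte, granulosa and other marker genes given by value lie outside this rule. Alternatives were other pseudocounts, filters, scalings, thresholds and ways to join rows. Python 3.11.15, pandas 2.3.3 and numpy 2.4.6 were used.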

Additional observations from a re-analysis of the deposited data

How the results depend on the processing

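No member passed the 2-fold rule with the largest row per gene name. The same held with rows in all 3 tables only, without the renamed identifiers and with a pseudocount of 5 FPKM, but there the outcome was fixed. No member row was absent or renamed, so the first 2 repeated the main ratios, and a larger pseudocount can only shrink a ratio. Bub3 passed as lower at the low dose (1 member) under trimmed mean scaling and under scaling to equal summed FPKM, and Spc25 as lower for high against low dose (1 member) with a pseudocount of 0.1 FPKM. The median of the members at the low dose was -0.46 and -0.43 under trimmed mean and equal-sum scaling, that of high against low dose 0.31 and 0.32, and that at the high dose -0.15 under trimmed mean scaling. The 1.5-fold rule gave 1 member higher and 2 lower at the low dose and 1 each way for high against low dose. Of 300 recomputed member ratios 4 changed sign, those of Bub1 at the low dose and Bub1b at the high dose under both scalings. Most of the 300 could not do so. A pseudocount cannot turn a sign. The 1.5-fold rule, the filters and the settings on shared rows and renamed identifiers left every member ratio as it was. Only the scalings, and the largest row for Mad1l1 and Ttk, could change a sign.

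For the 47 other genes, the 1.5-fold rule gave 2 higher and 9 lower for the low dose (27 and 12.9% of all gene names), 2 and 10 for the high dose (19.5 and 12.4%) and 2 and 4 between doses (11.5 and 18.3%). A pseudocount of 0.1 FPKM gave 2 higher at the high dose and 2 higher and 2 lower between doses; 5 FPKM left 1 lower at the low dose and 0 higher at the high dose. A mean of at least 5 FPKM left 0 higher at the high dose, because Gsg2 fell below that filter. There 15.9% of all gene names were called. Filters and scalings were followed by a new choice of expressed genes, so the number of genes was not always 47. At the low dose both scalings gave 5 lower, with medians of -0.30 (trimmed mean) and -0.26 (equal sum). There 19.3% (trimmed mean) and 25.7% (equal sum) of all gene names were called, and 58.1 and 62.0% of these calls were higher. At the high dose the trimmed mean median was -0.20. Equal-sum scaling gave 2 higher between doses, where 21.4% of all gene names were called in either direction. Share of all gene names called 2-fold at the low dose was 12.9% with no filter and 8.88% with a pseudocount of 5 FPKM. At the high dose these were 9.06 and 6.55%, with 22.8% at 0.1 FPKM. Between doses 5 FPKM gave 6.73% and 0.1 FPKM gave 21.6%. Scaling to an equal sum also made the pseudocount and the filter of 1 FPKM smaller relative to the values, so 14774 gene names passed that filter, against 12196 as deposited. No paired analysis was possible because each group had 1 library, and leaving out a replicate was likewise not possible.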
